A study of Mus musculus with 3 samples.

Results

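Gdf15 and 7 genes of the integrated stress response (Ddit3, Atf4, Trib3, Chac1, Asns, Sesn2 and Ddit4) are described here in 3 single-cell RNA libraries of 1 mouse series. Gdf15 was selected on its measured rise in the library treated with vitamin D3, so its ratio is a description and carries no test. The other members were chosen as widely used targets and factors of that response, with earlier results of these data known. All 8 of 8 symbols were found in each library, each with 1 gene identifier.

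The study set cells from human skin grafts carried by mice beside cultured mouse bone marrow cells with or without vitamin D3. Co-Mac holds bone marrow cells of C57/BL6 mice grown with GM-CSF and left untreated, and VD-Mac holds cells of such cultures given 1,25 dihydroxy-cholecalciferol at 1 µM on day 7 for 24 h. The third library, hSTSG, holds cells from human split-thickness skin that lay under the skin of mice for 14 days, with 5 mice pooled and only mouse genes counted. Each condition is 1 library, so no test between conditions was possible, and every interval below (95%) covers counting error alone.

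The integrated stress response starts when a kinase phosphorylates the translation factor eIF2 alpha, which lowers general translation while raising translation of the transcription factor ATF4. ATF4 and its target CHOP, the product of Ddit3, then raise genes for amino acid supply, redox balance and feedback. GDF15 is a secreted hormone of the TGF-beta family whose gene is among those that respond to this pathway, and also to p53 and other signals.

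Cells were kept with at least 300 genes, fewer than 100000 gene UMIs (unique molecules counted) and under 10% of UMIs from mitochondrial genes. This left 7257 cells in Co-Mac, 8825 in VD-Mac and 2144 in hSTSG, with medians of 15804, 12089 and 6637.5 UMIs per cell. Levels are in CPM, the UMIs of a gene per 1000000 gene UMIs, with both summed over the cells of a group. The share of kept cells at 5 to 10% mitochondrial UMIs was 56.9% in Co-Mac, 59.0% in VD-Mac and 17.0% in hSTSG, and in VD-Mac the cells under 5% were much shallower (median 3229 UMIs) than those above (15105). Co-Mac and VD-Mac shared 19 cell barcodes, and hSTSG shared 7 with each of them.

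Gdf15 stood at 6.84 CPM in Co-Mac, 246 in VD-Mac and 39.8 in hSTSG. VD-Mac was the highest and Co-Mac the lowest, with no overlap among the 3 intervals. Between the cultures this is 36.0-fold, a log2 ratio of 5.17 (5.08 to 5.27; 3.99 under 5% mitochondrial UMIs, 4.35 as a mean over cells and 4.47 in thinned cells), which ranked 2 among the 7732 genes with at least 10 CPM in the higher culture. The treatment marker Cyp24a1, which encodes the enzyme that degrades active vitamin D, had 1 UMI in Co-Mac, 314.8 CPM in VD-Mac and 0 UMIs in hSTSG (at most 0.132 CPM by 3 counts), a log2 ratio of 15.35 (12.87 to 20.65) between the cultures. After every cell of at least 2000 UMIs was thinned to that depth, 1.19% of Co-Mac cells, 21.4% of VD-Mac cells and 4.12% of hSTSG cells held a Gdf15 UMI, against 6.09%, 35.8% and 10.5% without thinning; 472, 1149 and 301 cells were too shallow to be thinned.

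**Figure D1:**
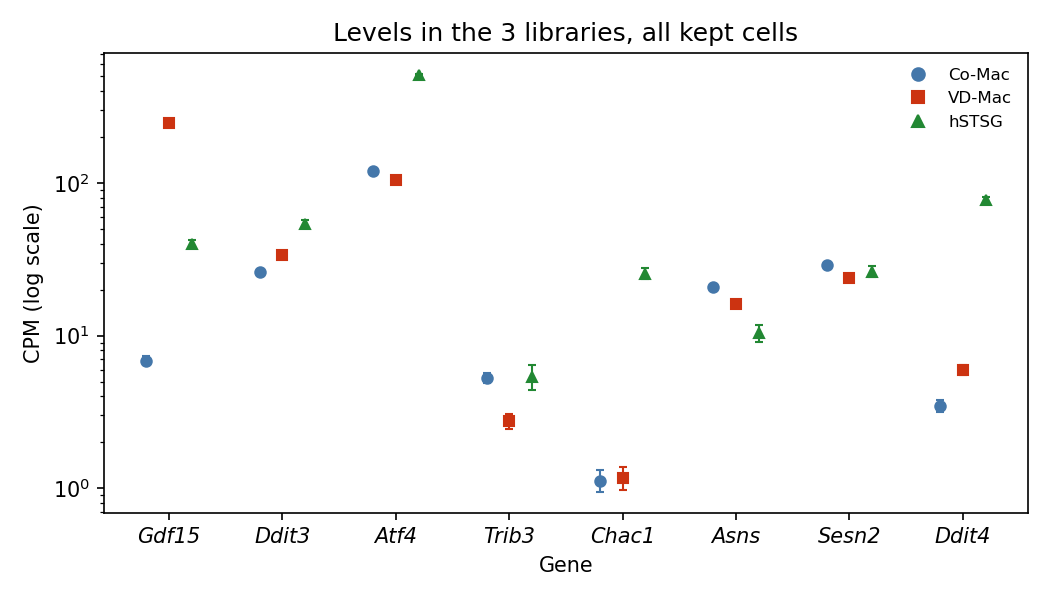
Levels of the 8 genes in all kept cells of Co-Mac, VD-Mac and hSTSG, 1 library each. Bars are exact Poisson intervals at 95% and cover counting error alone.

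The factors at the centre of the response did not show a like difference. Atf4, whose protein is raised mainly through translation, stood at 119.8 CPM in Co-Mac, 105 in VD-Mac and 508 in hSTSG. The graft library was the highest, and the cultures differed by a log2 ratio of -0.19 (-0.22 to -0.15), with intervals that did not overlap. Ddit3, which encodes the pro-apoptotic factor CHOP, stood at 26.1, 33.7 and 54.1 CPM in the same order. Its ratio was 0.37 (0.30 to 0.43), and a single VD-Mac cell held 317 of the 3927 Ddit3 UMIs of its library (8.07%); without that cell VD-Mac stood at 31.0 CPM, and without the highest cell of each culture the ratio was 0.26, a choice made after seeing the data.

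Among the targets that feed back on the pathway, Trib3, a pseudokinase that restrains ATF4 and CHOP, stood at 5.31 CPM in Co-Mac, 2.75 in VD-Mac and 5.34 in hSTSG. VD-Mac was the lowest and its interval met neither of the others, for a log2 ratio of -0.95 (-1.15 to -0.76), but the ratio was -0.27 in thinned cells and turned to 0.18 when CPM were averaged over cells. Chac1, which degrades glutathione, stood at 1.12, 1.17 and 25.5 CPM. The cultures overlapped and the graft library was far above both.

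Asns, which makes asparagine, stood at 20.8 CPM in Co-Mac, 16.2 in VD-Mac and 10.4 in hSTSG. Co-Mac was the highest, with a log2 ratio of -0.36 (-0.44 to -0.27), which was -0.63 under 5% mitochondrial UMIs, -0.10 in thinned cells and -0.03 when CPM were averaged over cells. The mTORC1 inhibitor Sesn2 stood at 29.0, 24.0 and 26.2 CPM and Ddit4, which encodes another inhibitor of mTORC1, at 3.45, 5.95 and 77.6 CPM. For Sesn2 the VD-Mac interval met that of hSTSG and not that of Co-Mac (ratio -0.28, -0.35 to -0.21), and for Ddit4 all 3 intervals lay apart (0.79, 0.62 to 0.96), with a ratio of 0.59 under 5% mitochondrial UMIs, 0.41 in thinned cells and 0.32 as a mean over cells.

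Of the 8 members, 5 reached 10 CPM in the higher culture, and 1 of these was at least 2-fold higher in VD-Mac, where 167 of 7732 genes (2.16%) were. That 1 is Gdf15, selected on its rise, so its place in the count follows from the selection; of the other 7 members, 4 reached that level and 0 were at least 2-fold higher. No member was at least 2-fold lower with that level, as 358 of the 7732 genes (4.63%) were. Trib3, Chac1 and Ddit4 lay below 10 CPM in both cultures; Trib3 lay just inside a 2-fold difference (0.517 of its Co-Mac level) and Ddit4 was 1.73-fold higher in VD-Mac. With 1 CPM added, the 7 members other than Gdf15 had a median log2 ratio of -0.18, and the 4 of them with at least 10 CPM had -0.23, beside -0.10 for all genes with at least 10 CPM. Intervals lay above no change for Ddit3 and Ddit4 and below it for Atf4, Trib3, Asns and Sesn2. An interval clear of no change was common at this depth: among the 7732 genes it lay above for 32.7% and below for 54.1%, and this share, like those of intervals below, was computed after seeing the data.

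Clusters were named by marker lists in each library on its own, with the members and all gene lists left out of the clustering. Macrophage-like cells were 2122 in Co-Mac (clusters 2 and 3), 1189 in VD-Mac (cluster 3) and 541 in hSTSG. In Co-Mac 1074 of them (cluster 2) were dividing, whereas the dividing cells of VD-Mac with macrophage markers lie in its unnamed cluster 4. Clusters that met no single type were left unnamed and held 12.9%, 35.7% and 6.76% of the kept cells, so the classes of VD-Mac cover less of their library. The 10 macrophage markers, all found in each library, summed to 1003 CPM in Co-Mac, 1181 in VD-Mac and 6307 in hSTSG, led by C1qb (297 and 445 CPM) in the cultures and by Mrc1 (1373) in the graft. The 7 monocyte markers, none at 0, summed to 617, 109 and 907 CPM, led by Ccr2 (318) in Co-Mac, Ly6c2 (69.6) in VD-Mac and Plac8 (405) in hSTSG; whether this difference bears on the members was not tested.

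In macrophage-like cells Gdf15 stood at 7.74 CPM in Co-Mac, 628 in VD-Mac and 72.1 in hSTSG. The 3 intervals lay apart, and VD-Mac was 81.1-fold above Co-Mac, a log2 ratio of 6.34 (6.21 to 6.47). Cluster 3 of each culture, neither of them dividing, gave 6.53 (6.30 to 6.77), a pairing chosen after seeing the data. In it Ddit4 (2.64) lay above no change, Atf4 (-0.09) below it, and the other 5 members had intervals that included it. Of the 7530 genes with at least 10 CPM in this pair, 31.4% lay above no change and 41.3% below. Ddit4 had less than 10 CPM in both clusters, so these shares do not cover it. Mature dendritic cell-like cells, the largest class of both cultures, stood at 0.784 CPM in Co-Mac, 18.7 in VD-Mac and 0.741 (1 UMI) in hSTSG. Dendritic cell-like cells had 0 Gdf15 UMIs in 79 Co-Mac cells and 245 CPM in 119 VD-Mac cells, which is at least 90.5-fold against a floor of 3 counts.

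Neutrophil-like cells stood at 43.8 CPM in Co-Mac, 60.9 in VD-Mac and 21.8 in hSTSG, for a ratio between the cultures of 0.48 (0.19 to 0.77). This class holds different clusters in the cultures: clusters 6 (547 cells, median 2067 UMIs) and 7 (379 cells, 7848 UMIs) in Co-Mac and cluster 5 alone in VD-Mac (2597 UMIs), and Gdf15 stood at 12.1 CPM in cluster 6 and 55.3 in cluster 7. Against cluster 6, nearest in depth, the ratio was 2.33 (1.57 to 3.20, from 15 Co-Mac UMIs) and against cluster 7 it was 0.14 (-0.16 to 0.44), pairings chosen after seeing the data. In both pairings, as in the class, the Gdf15 ratio was below that of macrophage-like cells. After thinning, 5.02% of 657 Co-Mac and 5.16% of 679 VD-Mac neutrophil-like cells held a Gdf15 UMI.

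**Figure D2:**
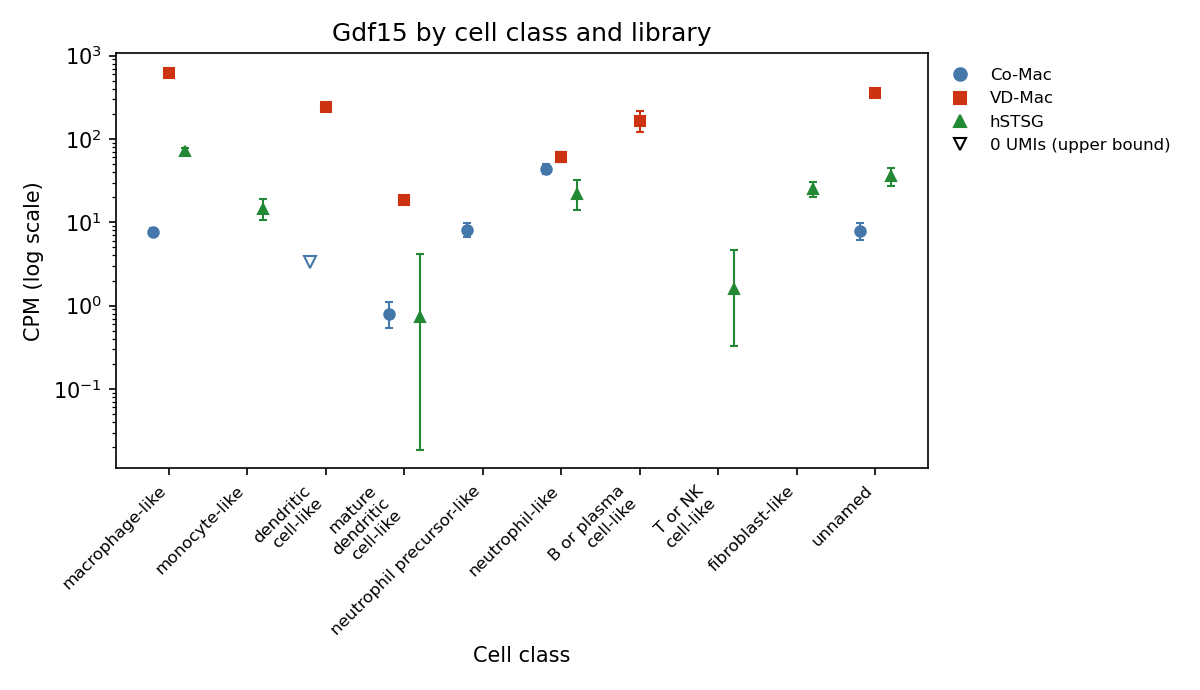
Gdf15 in each class of at least 50 cells, by library. Bars are exact Poisson intervals at 95% (counting error alone); open triangles mark the upper bound where no UMI was counted.

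Macrophage markers were summed in other classes with RNA that is free in the suspension in mind, though these classes were not shown to lack the markers. In VD-Mac the mature dendritic cell-like cells held 2.97% (2.78 to 3.18) of the Gdf15 level of macrophage-like cells, and 3.03% (2.93 to 3.13) of the summed level of the 10 macrophage markers. For Gdf15 and the marker sum the intervals overlapped, while the share was 1.79% for C1qa, C1qb and C1qc together (a set chosen after values were seen) and 6.95% for Cyp24a1. In Co-Mac the same shares were 10.1% (6.84 to 14.5) for Gdf15 and 4.49% for the markers. After thinning, 2.89% of VD-Mac mature dendritic cell-like cells and 58.5% of macrophage-like cells held a Gdf15 UMI (13.02% and 86.5% unthinned), at similar median depths of 13697 and 14693 UMIs, with 11 and 2 cells left out as shallow. In dendritic cell-like cells of VD-Mac the share was 39.0% for Gdf15, 16.6% for the 10 markers and 11.0% for the C1q genes, and in neutrophil-like cells (median 2597 UMIs) it was 9.71%, 22.3% and 2.32%, so there the marker share was above that of Gdf15. In Co-Mac neutrophil-like cells the order was the reverse, at 566% for Gdf15, 41.5% for the markers and 4.35% for the C1q genes. The markers and the C1q genes give unlike shares in mature dendritic cell-like, dendritic cell-like and neutrophil-like cells alike, so no level of free RNA is read there.

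The other members showed no common direction by cell type. In macrophage-like cells Ddit3 stood at 19.9 CPM in Co-Mac, 23.9 in VD-Mac and 47.4 in hSTSG, and Atf4 at 128, 113 and 492. For both genes the graft was the highest, and the ratios between the cultures were 0.26 (0.11 to 0.42) and -0.18 (-0.25 to -0.11). Asns (-0.27) and Sesn2 (-0.31) lay below no change there, and the intervals of Trib3 and Chac1 included it. Between the nondividing clusters 3, Asns (0.03), Sesn2 (-0.02) and Ddit3 (0.18, -0.00 to 0.37) had intervals that included no change. Ddit4 stood at 1.64, 5.66 and 40.5 CPM in macrophage-like cells, a ratio of 1.79 (1.39 to 2.19), below 10 CPM in both cultures.

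In macrophage-like cells 7807 genes had at least 10 CPM in the higher culture, of which 297 (3.80%) were at least 2-fold higher in VD-Mac and 718 (9.20%) at least 2-fold lower. Apart from the selected Gdf15, 0 of the 7 members were among the former, and none was among the latter, but only 4 of the 7 had 10 CPM there, and Ddit4, below that level, was 3.45-fold higher. Counting intervals lay above no change for 26.6% of the 7807 genes and below it for 52.9%. Among mature dendritic cell-like cells Ddit3 (0.49, 0.38 to 0.60) and Atf4 (0.11, 0.04 to 0.18) lay above no change, while Trib3, Asns and Sesn2 lay below it. Of the 6658 genes with at least 10 CPM in this class, 44.5% lay above and 29% below. Trib3 and Asns had less than 10 CPM in both cultures there, so these shares do not cover them. Neutrophil-like cells had 4 of the 7 members above no change and none below, where 34.8% of the 7612 genes with at least 10 CPM, as 6 of the 7 had, lay above and 11.2% below. Against Co-Mac cluster 6 alone none lay above it and Ddit4 (-0.85) lay below (9.73% and 12.3% of genes), and against cluster 7 alone 5 lay above and none below (43.5% and 12% of genes). In the whole neutrophil-like class Trib3 stood at 6.44 CPM in Co-Mac and 14.2 in VD-Mac (3.49 in hSTSG from 4 UMIs). It was 2.21-fold higher in VD-Mac, from 30 and 46 UMIs, but its interval against Co-Mac cluster 6 included no change (0.97, -0.08 to 2.19).

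Some of the highest stress gene levels lay in an unnamed cluster of the untreated culture. Co-Mac cluster 8 (251 cells, median 28024 UMIs) stood at 97.5 CPM of Ddit3, 30.8 of Trib3, 46.8 of Asns and 182 of Atf4, with Gdf15 at 7.32 CPM. Trib3 was higher there than in any other cluster of the cultures, Asns stood close to the 45.5 CPM of VD-Mac neutrophil-like cells, and Atf4 was higher in Co-Mac cluster 6 (206 CPM). The VD-Mac cluster nearest in depth, the unnamed cluster 6 (425 cells, median 32080 UMIs), had Ddit3 at 27.6, Trib3 at 1.69 and Gdf15 at 279 CPM. Cluster 8 was singled out after seeing the data for its stress gene levels. Other pairs of clusters differed in other ways. In VD-Mac cluster 4 over Co-Mac cluster 2, both dividing, Gdf15 gave 5.78. Atf4 (0.13), Chac1 (1.30), Asns (0.52) and Ddit4 (1.47) lay above no change there. Ddit3 (-0.21) and Sesn2 (-0.46) lay below, where 29.8% of 7955 genes lay above and 45.8% below. Over Co-Mac cluster 4 Gdf15 gave 5.82, with Ddit3 (0.94), Chac1 (0.86), Sesn2 (0.61) and Ddit4 (1.04) above and Atf4 (-0.28) below. For that pair 29.6% of 7874 genes lay above and 44% below. For both pairs these shares cover genes with at least 10 CPM, which Chac1 and Ddit4 did not reach. In VD-Mac cluster 2 over Co-Mac cluster 5, both shallow, Gdf15 gave 5.81 (4.68 to 7.26, from 6 Co-Mac UMIs). Of the other members Sesn2 (1.21) alone lay above no change, where 18.6% of 6364 genes lay above and 19.7% below. In VD-Mac cluster 10 (50 cells), which met the B or plasma cell list but whose leading genes hold the platelet genes Pf4, Itga2b and Itgb3 beside Igkc, Cd79a and Cd79b (looked up after values were seen), Ddit3 stood at 1270.0 CPM with the single cell named above and at 291 without it. VD-Mac cluster 4 (989 dividing cells with markers of macrophages and neutrophil precursors) had Gdf15 at 456 CPM and cluster 2 (1447 shallow cells) at 187.

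The Gdf15 ratio between the cultures differed by mitochondrial share when all kept cells were summed. Under 5%, Gdf15 stood at 8.40 CPM in Co-Mac, 133 in VD-Mac and 39.1 in hSTSG; at 5 to 10% it stood at 6.14, 276 and 43.5. The ratio between the cultures was 3.99 (3.83 to 4.15) in the lower stratum and 5.49 (5.37 to 5.61) in the higher, with intervals apart. Within macrophage-like cells the levels were 8.06 and 640.3 CPM under 5% (399 and 115 cells) and 7.67 and 627 CPM at 5 to 10% (1723 and 1074 cells), and the ratios of 6.31 (6.01 to 6.63) and 6.35 (6.21 to 6.50) overlapped. The ratios of mature dendritic cell-like cells also overlapped (3.59 to 5.84 under 5% and 3.91 to 5.14 above), while those of neutrophil-like cells, with their unlike clusters, did not, at 0.08 (-0.29 to 0.44) under 5% and 1.13 (0.64 to 1.62) at 5 to 10%. Within VD-Mac, Gdf15 at 5 to 10% over under 5% gave 1.05 in all kept cells, 0.97 (0.90 to 1.05) in unnamed cells and 0.49 (0.24 to 0.75) in mature dendritic cell-like cells. The unnamed cells join clusters of unlike mitochondrial share and Gdf15 level. Cluster 2 had a median of 0.34% and 187 CPM, cluster 4 had 6.38% and 456 CPM, and cluster 6 had 6.94% and 279 CPM. Macrophage-like cells made up more of the higher stratum: 90.3% of them lay at 5 to 10% in VD-Mac, beside 59.0% of all kept cells.

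Some stress genes differed by mitochondrial share within a library and class. In Co-Mac macrophage-like cells Ddit3 stood at 31.9 CPM under 5% and 17.1 at 5 to 10%, Trib3 at 10.6 and 4.02, and Asns at 33.7 and 19.1. All 3 were higher in the lower stratum, with ratios of the higher over the lower of -0.90, -1.40 and -0.82 whose intervals lay below 0. So did those of Chac1 (-1.65), Atf4 (-0.25) and Sesn2 (-0.27), where 25.4% of 7702 genes lay below 0 and 13% above. These shares cover genes with at least 10 CPM, which Chac1 did not reach. Gdf15 gave -0.07 (-0.40 to 0.27) in these cells. It lay below 0 in Co-Mac neutrophil-like cells (-0.63, -1.06 to -0.20), unnamed cells (-1.47, -2.21 to -0.77) and all kept cells (-0.45, -0.65 to -0.25). In the neutrophil-like cells Ddit3, Atf4, Asns and Ddit4 also lay below 0, as did 23.5% of 7492 genes with at least 10 CPM, with 8.36% above. For the unnamed and all kept cells the share of all genes was not computed, so the other members are not read there. The unnamed cells of Co-Mac join clusters of unlike mitochondrial share, such as cluster 5 (median 0.116%) and cluster 8 (5.92%). In VD-Mac macrophage-like cells, of which only 115 lay under 5%, Ddit3 gave -0.53 (-0.94 to -0.10), the other 6 members had intervals that included 0, and Gdf15 gave -0.03 (-0.12 to 0.06). Of 7421 genes in these cells, 10% lay above 0 and 11.2% below. In VD-Mac neutrophil-like cells Ddit3 (-0.96) and Asns (-1.30) lay below 0, as did Trib3 (-3.18, -6.27 to -1.24) from 2 and 44 UMIs. Of 7695 genes there, 19% lay below 0 and 5.95% above. In hSTSG macrophage-like cells Atf4 was higher at 5 to 10% (0.31, 0.21 to 0.41), where 21% of 7505 genes lay above 0 and 10.3% below. The intervals of the other members and of Gdf15 included 0. Between the cultures, macrophage-like cells under 5% had Asns (-0.76) below no change and Ddit4 (2.63) above it. Those at 5 to 10% had Ddit3 (0.43) and Ddit4 (1.66) above and Atf4 (-0.15) and Sesn2 (-0.27) below. Shares of all genes between the cultures were not computed by stratum. In the whole class 26.6% of 7807 genes with at least 10 CPM lay above no change and 52.9% below. Ddit4 had less than 10 CPM in both cultures in either stratum. Whether RNA quality or cell type accounts for the differences by mitochondrial share was not tested.

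**Figure D3:**
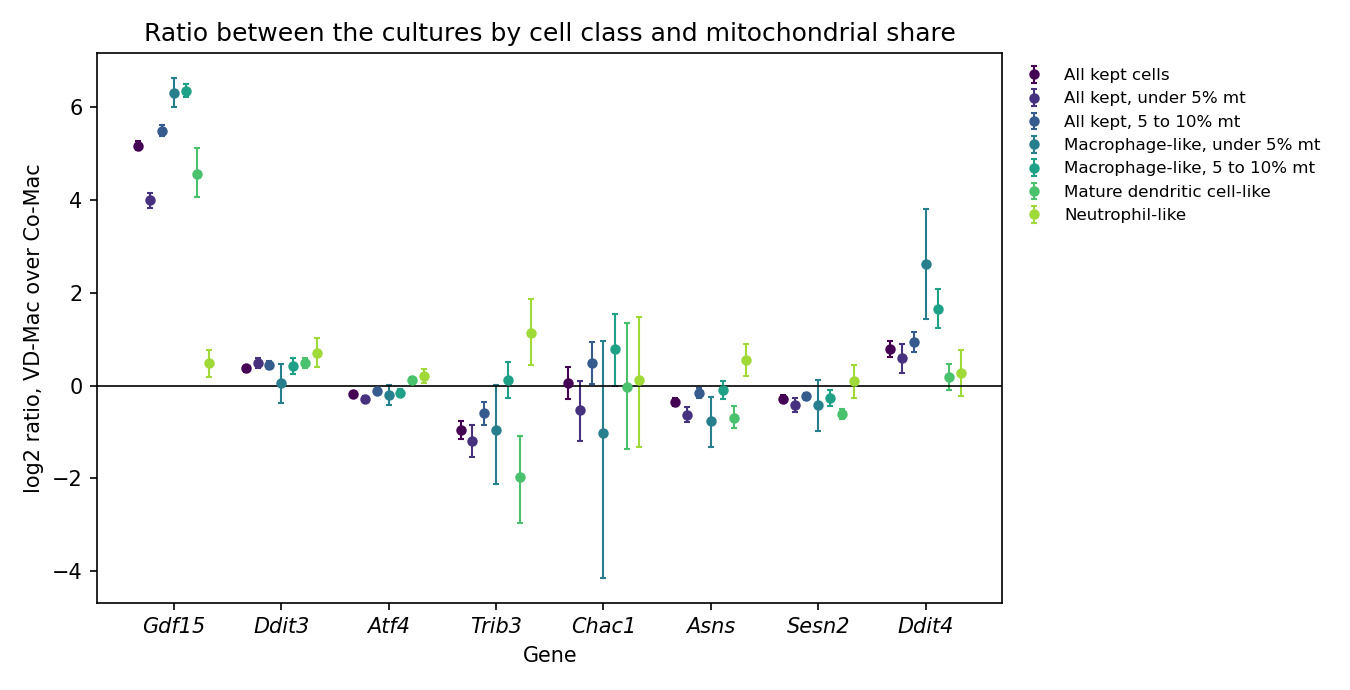
Log2 ratio of VD-Mac over Co-Mac for the 8 genes in all kept cells, by mitochondrial (mt) share and by cell class. Bars are exact conditional binomial intervals at 95% (counting error alone).

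Gdf15 and the stress genes were also compared cell by cell, by whether a thinned cell held a Gdf15 UMI. In VD-Mac macrophage-like cells (694 with and 493 without) this split cannot show a link, since 86.5% of these cells held Gdf15 before thinning and even Cyp24a1 gave 0.14 (-0.03 to 0.30) between the sets, so no value of a member is read from it. In VD-Mac mature dendritic cell-like cells (96 and 3227 cells) Cyp24a1 gave 1.35 (0.48 to 2.11), and the members with a UMI in both sets had wide intervals that included no difference, such as Ddit3 at 0.55 (-0.47 to 1.41). In the macrophage-like cells of hSTSG (52 and 467 cells) the intervals of such members also included no difference, so a link was not detectable at this depth.

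Upstream, the 4 kinases of eIF2 alpha differed little between the cultures. The heme-regulated kinase Eif2ak1 stood at 15.8 CPM in Co-Mac, 17.8 in VD-Mac and 25.0 in hSTSG, and the double-stranded RNA sensor Eif2ak2 at 26.2, 22.7 and 32.5. The ER stress kinase Eif2ak3 stood at 8.36, 8.12 and 19.4 CPM and the amino acid sensor Eif2ak4 at 12.6, 10.7 and 6.31. Their log2 ratios ran from -0.23 (Eif2ak4) to 0.17 (Eif2ak1), and the interval of Eif2ak3 included no change. In this list of 8 genes, for the kinases, their substrate eIF2 alpha (Eif2s1) and phosphatase subunits, 0 genes were at least 2-fold different, the median over the 7 with at least 10 CPM was -0.20, and the most abundant gene, Eif2s1, stood at 126, 81.9 and 59.2 CPM. All list medians that follow are over the genes with at least 10 CPM, beside -0.10 for all such genes.

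Among factors related to ATF4 the median was 0.08 over 7 genes, and 1 was at least 2-fold higher. That was Jdp2, a repressor that pairs with Jun and ATF proteins, at 9.50 CPM in Co-Mac, 44.7 in VD-Mac and 109 in hSTSG, with a ratio of 2.23 (2.14 to 2.32) in the libraries and 2.49 in macrophage-like cells; the most abundant, Cebpb, stood at 548, 399.8 and 1172. For amino acid supply under ATF4 the medians were below that of all genes: the median was -0.76 over 7 synthesis and one-carbon genes, -0.52 over 6 transporters and -0.33 over 12 tRNA synthetases, and over all list genes at any level it was -0.30, -0.40 and -0.33. At least 2-fold lower were the serine enzyme Psat1 (25.6, 11.9 and 12.5 CPM) and the leucine transporter subunit Slc7a5 (36.4, 14.3 and 35.5). The most abundant of these lists were Mthfd2 (81.2, 42.1 and 54.8), Slc7a11 (237, 151 and 679) and Eprs (87.0, 57.2 and 149.5), with VD-Mac below Co-Mac for each.

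The remaining ATF4 and CHOP targets had a median of -0.03 over 7 genes, none 2-fold different, led by the autophagy gene Map1lc3b (296, 448 and 429 CPM). In macrophage-like cells 1 of this list, Ndrg1, was at least 2-fold lower in VD-Mac (19.5 and 8.13 CPM), as were Mthfd2 (76.1 and 28.6), Psat1 (32.7 and 13.2) and Aldh18a1 (12.2 and 5.71) of amino acid synthesis and Slc7a5 (44.0 and 17.4) and Slc7a1 (29.5 and 14.6) of the transporters. The chaperone arm of the unfolded protein response had a median of -0.48 over 19 genes with 0 of them 2-fold different, led by Calr (568, 296 and 718 CPM). Genes of mitochondrial protein stress had a median of -0.22 over 9, with the chaperone Hspd1 at least 2-fold lower (215, 106 and 150.3 CPM) and Hspe1 the most abundant (512, 439 and 335).

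Other signals known to act on Gdf15 were read the same way. The p53 targets had a median of -0.26 over 13 genes and none 2-fold different, led by Cdkn1a (583, 392 and 718 CPM); in macrophage-like cells Plk2 (18.8 and 55.7 CPM) and Btg2 (86.6 and 240.3) were at least 2-fold higher in VD-Mac. The NRF2 targets had a median of -0.64 over 11 genes with Srxn1 (70.6, 26.2 and 99.2 CPM), Prdx1 (2209, 889 and 1090.0) and Gclm (386, 158 and 90.3) at least 2-fold lower, the first and last also in macrophage-like cells. The heat shock list had a median of -0.36 over 7 genes, none 2-fold different, led by Hspa8 (1572, 1223 and 1730.0 CPM), though in macrophage-like cells Hsph1 (32.5 and 111 CPM) was higher in VD-Mac. The hypoxia list had 0.23 over 9 genes with the growth factor Vegfa at least 2-fold higher (3.64, 14.4 and 238 CPM), led by Aldoa (672, 649.6 and 504). In macrophage-like cells Vegfa (2.60 and 22.1 CPM), P4ha1 (24.1 and 57.2) and Bnip3 (17.0 and 35.8) were higher by 2-fold or more.

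The immediate early genes, which also mark tissue handling, had a median of 0.64 over 10 genes, with Zfp36 (133, 273 and 740.2 CPM) 2-fold higher and Junb (278, 437 and 1849) the most abundant. In macrophage-like cells their median was 1.04, beside -0.16 for all genes, and 6 of 10 were at least 2-fold higher, as 3.80% of 7807 genes were. Ier3 (145 and 479 CPM), Btg2 and Zfp36 (130.2 and 304) were the largest. A link between this list and Gdf15 was not tested. A list of 14 genes held TGF-beta family ligands, the GDF15 receptor and the protease gene Furin. Of these, 3 had 10 CPM (Inhba, Tgfb1 and Furin), with a median of -0.47, beside 0.00 over the whole list. Inhba was lower (15.4, 2.43 and 282 CPM) and Tgfb1 the most abundant (226, 216 and 269.7). The vitamin D list of 5 had a median of 0.02, with Cyp24a1 and Vdr (51.1, 135 and 52.1 CPM) higher and Rxra (12.9, 4.34 and 22.8) lower. In macrophage-like cells the list medians ran from -0.81 (amino acid synthesis, 6 genes) to 1.38 (vitamin D, 4 genes), but over all list genes these were -0.23 and 0.49, and the ends were -0.40 (the chaperone arm) and 1.04 (immediate early genes).

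Across 16 class and library combinations of at least 50 cells, the genes whose pattern was most like that of Gdf15 were sought among 11372 genes. They were Gm38832 (Pearson r = 0.778), Klhl33 (0.758), 1810043G02Rik (0.753), Cyp24a1 (0.749) and Pml (0.741). In macrophage-like cells Gm38832 stood at 1.29 CPM in Co-Mac, 30.6 in VD-Mac and 0.325 in hSTSG, Klhl33 at 0.414, 14.6 and 1.62, 1810043G02Rik at 9.70, 24.1 and 15.8, and Pml, which encodes a nuclear body protein, at 6.84, 41.8 and 6.93. VD-Mac was the highest for all of them. Of the members, Ddit3 came closest to Gdf15 (r = 0.26), with 1685 genes above it, and Sesn2 was the farthest (-0.40). Without VD-Mac cluster 10, where 1 cell holds 317 of 404 Ddit3 UMIs, the r of Ddit3 was 0.05 over 15 combinations, a choice made after seeing the data. Over the 10 combinations of the cultures alone Ddit4 was the closest (0.47), before Ddit3 (0.39) and Trib3 (0.36), and Sesn2 again the farthest (-0.40).

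In the graft library Gdf15 and the stress genes were highest in different cells. Among named classes Gdf15 was highest in macrophage-like cells, followed by fibroblast-like cells (24.9 CPM), neutrophil-like cells (21.8) and monocyte-like cells (14.5), and it had 3 UMIs in T or NK cell-like cells (1.59 CPM). A single cell of cluster 3 held 119 of its 902 Gdf15 UMIs (13.2%); without it the library stood at 34.6 CPM and the macrophage-like cells at 59.5. Among the same classes Ddit3 (199.8 CPM), Chac1 (225) and Atf4 (671) were highest in neutrophil-like cells, which were shallow (median 2261.5 UMIs) and 0.840% of which lay at 5 to 10% mitochondrial UMIs. Ddit4 was highest in T or NK cell-like cells (173 CPM) and mature dendritic cell-like cells (165), with overlapping intervals. In the graft macrophage-like cells Trib3 (2.49), Chac1 (1.73) and Asns (4.11) each stood below 5 CPM.

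The 8 genes lie on 6 chromosomes. Their promoters, 250 bases before to 50 after the start, were read from RefSeq (build GRCm38.p6), with 9 windows for the 8 genes as Gdf15 has more than 1 start. The C/EBP-ATF response element was searched as TGATGNAA on both strands, and 3.97% of all 32851 promoter windows held it. It was found in 3 of the 9 windows, those of Trib3, Chac1 and Asns. These are printed with the first window of Gdf15, which holds no match, to set Gdf15 beside the members with the element; capitals mark the match. Gdf15 (chr8:70632407-70632706), Trib3 (chr2:152344011-152344310) and Asns (chr6:7693160-7693459) are on the minus strand and Chac1 (chr2:119350992-119351291) on the plus strand, each written 5' to 3' along its gene.
Gdf15: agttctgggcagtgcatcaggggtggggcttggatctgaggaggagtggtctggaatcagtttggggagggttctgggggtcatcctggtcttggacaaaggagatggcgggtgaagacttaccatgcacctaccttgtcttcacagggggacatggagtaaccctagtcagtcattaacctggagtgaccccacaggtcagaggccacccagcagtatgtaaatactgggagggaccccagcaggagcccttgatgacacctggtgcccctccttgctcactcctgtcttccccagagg
Trib3: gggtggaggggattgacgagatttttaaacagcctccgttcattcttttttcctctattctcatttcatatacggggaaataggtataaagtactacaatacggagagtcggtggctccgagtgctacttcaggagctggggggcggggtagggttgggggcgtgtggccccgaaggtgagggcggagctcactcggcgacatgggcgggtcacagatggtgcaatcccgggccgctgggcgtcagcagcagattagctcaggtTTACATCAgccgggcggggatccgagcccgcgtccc
Chac1: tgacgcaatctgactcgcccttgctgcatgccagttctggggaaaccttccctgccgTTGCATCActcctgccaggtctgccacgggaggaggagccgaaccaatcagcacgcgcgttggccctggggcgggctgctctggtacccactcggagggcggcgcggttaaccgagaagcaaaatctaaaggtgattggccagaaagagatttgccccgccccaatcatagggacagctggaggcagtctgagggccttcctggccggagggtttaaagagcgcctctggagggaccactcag
Asns: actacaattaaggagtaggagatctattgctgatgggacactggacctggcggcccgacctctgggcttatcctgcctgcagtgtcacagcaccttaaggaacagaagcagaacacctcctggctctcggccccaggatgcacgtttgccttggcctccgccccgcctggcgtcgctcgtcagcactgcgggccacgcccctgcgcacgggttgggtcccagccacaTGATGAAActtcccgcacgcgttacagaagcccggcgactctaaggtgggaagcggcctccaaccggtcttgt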

How the data were processed

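The counts are those the authors deposited for each library (gene UMIs per barcode, from Cell Ranger 3.1.0). Members and lists were chosen with earlier results of these data known. Clustering used Seurat 5.3.0 (the study used 3.1.1) in R 4.3.3: log normalization, 2000 variable genes, 15 principal components, 15 neighbors and Louvain resolution 0.5. Clusters took the best-scoring marker list with at least 3 markers detected (the graft monocyte-like cluster scored higher for erythroid cells, with 1 detected), and the rule for leaving clusters unnamed was settled after the clusters were seen. Doublets were kept; an alternative left out the 10% of cells with the most UMIs. Named genes are the members, the 4 eIF2 alpha kinases, list genes at least 2-fold different with 10 CPM (at most 3 each way) with the most abundant gene of each list and marker list, and the 5 genes most like Gdf15. Of 166 list symbols, 163 were matched. The labels name mm9 and the methods GRCh38, but 31011 of 31053 gene identifiers are in GENCODE M21 (GRCm38). Counting and intervals used Python 3.11.15 and scipy 1.17.1.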

Additional observations from a re-analysis of the deposited data

Results flagged for a closer look

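Some members were higher in VD-Mac in 1 cell class and lower in another, with counting intervals clear of no change; the difference was not tested. The log2 ratio of VD-Mac over Co-Mac for Atf4 was 0.11 in mature dendritic cell-like and 0.20 in neutrophil-like cells, but -0.18 in macrophage-like and -0.45 in dendritic cell-like cells. For Asns it was 0.55 in neutrophil-like cells, but -0.27 in macrophage-like, -0.69 in mature dendritic cell-like cells, where both cultures lay below 10 CPM, and -3.03 in dendritic cell-like cells, from 23 UMIs in Co-Mac and 4 in VD-Mac. For Trib3 it was 1.14 in neutrophil-like cells and -1.98 in mature dendritic cell-like cells, the latter below 10 CPM in both cultures. The neutrophil-like class holds different clusters in the cultures, and against Co-Mac cluster 6 alone the intervals of all 3 genes included no change. The macrophage-like class holds clusters 2 and 3 in Co-Mac and cluster 3 in VD-Mac. For cluster 3 of each culture Asns gave 0.03 and Atf4 -0.09, and for the dividing cells (VD-Mac cluster 4 over Co-Mac cluster 2) Asns gave 0.52 and Atf4 0.13. These pairings were chosen after seeing the data.

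Barcodes left out for 10% or more mitochondrial UMIs, which the levels above leave out, also held Gdf15. It stood at 268.2 CPM in 960 such barcodes of VD-Mac and 73.7 CPM in 330 of hSTSG, beside 7.33 CPM in 604 of Co-Mac. The hSTSG file also holds 1195935 hashtag UMIs, not used here; the files of the cultures hold 0.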

How the results depend on the processing

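The log2 ratio of Gdf15 between the cultures was positive under all 9 alternatives, from 3.99 to 5.76. It was 3.99 under 5% mitochondrial UMIs, 5.27 with upper-quartile scaling, 4.35 as a mean over cells, 5.76 with the class shares of Co-Mac given to VD-Mac (shared classes hold 90.2% of Co-Mac UMIs, with unnamed clusters as 1 class) and 4.47 with cells thinned to 2000 UMIs. The count of members at least 2-fold higher was 1 under all 11 alternatives, and that 1 is Gdf15, which was selected on its rise. The median of the other 7 members, -0.18, was -0.32 under 5% mitochondrial UMIs, -0.12 without the deepest 10% of cells, -0.10 with median-of-ratios scaling, -0.08 with upper-quartile scaling, -0.09 thinned, -0.17 with 10 CPM added and 0.00 as a mean over cells, where Trib3 turned to 0.18; the cause was not tested. Upper-quartile scaling moved the median of all genes by 0.11. The median of the 7 members less that of all genes, taken before rounding, was -0.09 in the main setting and with both scalings. It ran from -0.19 under 5% mitochondrial UMIs to 0.05 as a mean over cells. As a mean over cells 5 of the 7 members lay above the median of all genes, where 3 did in the main setting. Within macrophage-like cells the Gdf15 ratio was 6.59 at resolution 0.3, 6.05 at resolution 0.8, 6.54 without the deepest cells and 6.53 for cluster 3 of each culture. Restricted to macrophage-like cells, the stratum ratios of 3.99 and 5.49 became 6.31 and 6.35. For single other members, 36 of 70 recomputed ratios lay within the counting interval, 33 lay outside it and 1, that of Trib3, turned from an interval clear of no change. The ratio of Chac1, whose interval includes no change, went from 0.06 to -0.53 under 5% mitochondrial UMIs, 0.52 without the deepest 10% of cells and -0.06 with the class shares. The neutrophil-like Gdf15 ratio of 0.48 was 2.33 against Co-Mac cluster 6 and 0.14 against cluster 7. The correlation of Ddit3 with Gdf15 went from 0.26 to 0.05 without VD-Mac cluster 10. The alternatives without a highest cell or that cluster and with single clusters were chosen after seeing the data. With 1 library per condition, variation between cultures or mice is not measured, and Trib3, Chac1 and Ddit4 lay below 10 CPM in both cultures. Clusters without a name hold more of VD-Mac than of Co-Mac.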
